A study of Mus musculus with 39 samples.

Results

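Border-associated macrophages (BAM) sorted from the mouse brain on embryonic day E11.5 were set against microglia sorted at the same stage. The comparison held all 6 libraries labelled E11.5, 3 of BAM and 3 of microglia, out of 39 libraries in the series, and it took in all genes of the count table, of which 22061 of 53379 were tested. The mice were of the C57Bl/6 strain and carried no labelled mutation or treatment, E0.5 being the day of the plug, and both populations came from time-mated embryos by fluorescence-activated sorting. The series spans 6 stages up to E18.5, and the neighbouring stages E10.5 (4 BAM and 4 microglia libraries) and E12.5 (3 and 3) are used here to place the E11.5 difference in time. Total RNA (2 ng per library, median integrity number 7.7) was amplified by a modified SMART-seq2 protocol and sequenced in pairs. The surface markers of the sort, the number of embryos per sample and whether replicates came from separate litters are not stated in the labels. The p-values therefore measure only the spread between libraries of a group, estimated over all 39 libraries, and that spread may be technical.

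Microglia are the macrophages of the brain parenchyma, and BAM are those of the meninges, the choroid plexus and the spaces around vessels. Both descend mainly from yolk sac progenitors and depend on signalling through the receptor of colony-stimulating factor 1. In the mature brain, microglia are known for Tmem119, P2ry12 and the transcription factor Sall1, and are maintained by transforming growth factor beta (TGF-beta), whereas BAM are known for the mannose receptor Mrc1, the hyaluronan receptor Lyve1 and the chemokine Pf4.

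The 6 libraries held 20630490 to 47182711 counts and 17846 to 19316 detected genes, with 1.36 to 2.68% of counts on mitochondrial genes. Levels are given as CPM, counts scaled to library size with TMM factors, and a fold change is the log2 ratio of BAM over microglia from edgeR's quasi-likelihood fit with its standard error, called at a Benjamini-Hochberg adjusted p under 0.05. In a principal component analysis of 500 genes chosen for their variance, component 1 (45.4%) placed the BAM libraries between -37.17 and -28.69 and the microglia libraries between 31.45 and 34.41. Component 2 (16.7%) set BAM replicate 3, at -36.26, apart from BAM replicates 1 and 2, at 23.72 and 16.4. The microglia libraries lay between -14.13 and 8.468 on it. Counted gene by gene, microglia replicate 3 stood apart most from the other 2 of its group. Among 7510 genes that averaged 4 or more in log2 CPM it lay at least 1.5-fold below both in 805 (10.7%) and above both in 266 (3.54%). Each of the other 5 libraries lay below both others of its group in 69 to 381. Without microglia replicate 3, 528 genes were called higher and 740 lower in BAM, and without BAM replicate 3 507 and 664. Microglia replicate 2 had the most counts of the 6 and is the one library in the series whose title carries the suffix _R, which the labels do not explain, and without it 468 genes were called higher and 693 lower.

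At E11.5, 626 genes were higher in BAM, 2.84% of those tested, and 844 were lower, 3.83% of those tested. Of these 1470 genes, 876 differed at least 2-fold, with 351 higher and 525 lower, and 122 and 177 differed at least 8-fold. The levels of the BAM and the microglia libraries did not overlap for 1368 of the 1470, as may follow from their choice by p-value. The share without overlap among all tested genes is not given here. The median log2 fold change over all tested genes was 0, and 4155 genes had an unadjusted p under 0.05. With bulk RNA, a lower level from fewer cells of a type and one from less RNA per cell cannot be told apart.

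**Figure D1:**
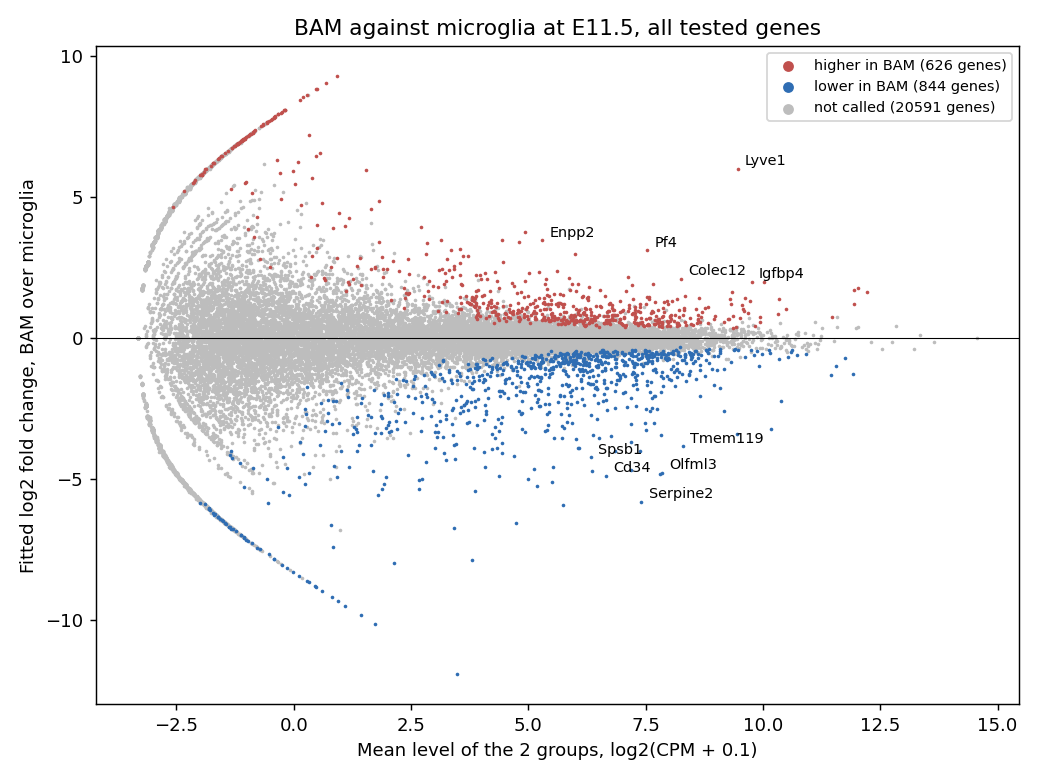
Fitted log2 fold change of BAM over microglia (vertical axis) against the mean level of both populations, as log2(CPM + 0.1), for every tested gene at E11.5 (3 libraries each). Red points are the 626 genes called higher in BAM, blue points the 844 called lower and grey points the rest, and the curved edges are genes with no count in 1 population, whose fitted value depends on the prior count.

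Leading genes were taken as the 15 called genes with the largest log2 fold change each way among those averaging at least 4 on the log2 CPM scale. Upwards, Lyve1 came first. This receptor for hyaluronan (chr7:110850607-110863239, minus strand, GRCm38) stood at 1248, 1657 and 1272 CPM in BAM and 26.4, 14.1 and 24.2 CPM in microglia, a log2 fold change of 6.02 ± 0.74 (adjusted p = 3.95e-07). Enpp2, which makes lysophosphatidic acid from lysophospholipids, stood at 83.5, 55.9 and 76.0 CPM in BAM and 4.22, 7.73 and 7.43 CPM in microglia. Enpp2 differed by 3.47 ± 0.43 on the log2 scale (adjusted p = 4.92e-07). Pf4, a CXC chemokine first known from platelets, stood at 353, 315 and 329.9 CPM in BAM and 30.7, 34.2 and 49.6 CPM in microglia. Pf4 differed by 3.12 ± 0.71 on the log2 scale (adjusted p = 0.00343). For these 3 genes every BAM library lay far above every microglia library. Fcna, a secreted ficolin that can start the lectin pathway of complement, stood at 115, 126 and 101 CPM in BAM and 12.03, 17.3 and 13.1 CPM in microglia, with a log2 fold change of 3.01 ± 0.42 (adjusted p = 4.37e-06). Clec10a, a lectin that binds galactose-type sugars, stood at 66.9, 70.7 and 49.9 CPM in BAM and 12.6, 17.1 and 6.52 CPM in microglia. Clec10a differed by 2.36 ± 0.56 on the log2 scale (adjusted p = 0.00553). The lowest Clec10a level in microglia was that of replicate 3. Colec12, a scavenger receptor of the collectin family, stood at 493, 532 and 459.6 CPM in BAM and 127, 98.0 and 122 CPM in microglia, with a log2 fold change of 2.10 ± 0.24 (adjusted p = 1.22e-07). Ednrb, a receptor for endothelins, stood at 1711, 1747 and 1539 CPM in BAM and 406, 395 and 442 CPM in microglia. Ednrb differed by 2.01 ± 0.29 on the log2 scale (adjusted p = 7.86e-06).

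Igfbp4, a secreted binder of insulin-like growth factors, stood at 1336, 1578 and 1242 CPM in BAM and 355, 368 and 316 CPM in microglia. Igfbp4 differed by 2.00 ± 0.22 on the log2 scale (adjusted p = 4.69e-08). The groups were separated by a gap wider than the spread within either. Ccl24, a chemokine that attracts eosinophils, stood at 109.8, 87.2 and 88.9 CPM in BAM and 30.2, 19.3 and 15.2 CPM in microglia, a log2 fold change of 2.15 ± 0.48 (adjusted p = 0.00275). Cnn3, an actin-binding calponin, stood at 81.1, 60.2 and 62.1 CPM in BAM and 18.9, 14.4 and 13.6 CPM in microglia. Cnn3 differed by 2.12 ± 0.25 on the log2 scale (adjusted p = 2.77e-07). Cav2, a caveolin of membrane pits, stood at 53.8, 49.3 and 43.4 CPM in BAM and 11.9, 6.41 and 17.9 CPM in microglia, a log2 fold change of 2.02 ± 0.31 (adjusted p = 2.08e-05). No library of microglia reached the lowest BAM level for any of these 3 genes. The orphan receptor Gprc5c had 207 to 259 CPM in BAM and 37.8 to 67.5 CPM in microglia (log2 fold change 2.17), Fam43a had 71.1 to 87.7 CPM in BAM and 10.8 to 18.4 CPM in microglia (2.39) and Mrvi1, a substrate of the cyclic GMP kinase, had 46.0 to 57.7 CPM in BAM and 8.02 to 14.2 CPM in microglia (2.31). Slc14a1, a urea transporter, had 31.6 to 32.9 CPM in BAM and 6.90 to 9.18 CPM in microglia and a log2 fold change of 2.02 ± 0.51 (adjusted p = 0.00987). It was not called without microglia replicate 3 (adjusted p = 0.0522), and the other 14 kept their call in each of the 6 fits that left out a library.

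The largest difference downwards belonged to Serpine2, a secreted inhibitor of thrombin and other serine proteases (chr1:79794197-79861180, minus strand). It stood at 6.08, 5.80 and 6.04 CPM in BAM and 368, 359 and 277 CPM in microglia. Serpine2 differed by -5.81 ± 0.48 on the log2 scale (adjusted p = 1.81e-10). Cd34, a sialomucin of haematopoietic progenitors and endothelium, stood at 10.6, 3.51 and 5.83 CPM in BAM and 182, 184 and 218 CPM in microglia. Cd34 differed by -4.88 ± 0.45 on the log2 scale (adjusted p = 1.32e-09). F11r, the junctional adhesion molecule A, stood at 19.97, 10.6 and 15.3 CPM in BAM and 465, 452 and 377 CPM in microglia, a log2 fold change of -4.82 ± 0.44 (adjusted p = 1.32e-09). For these 3 genes no BAM library came near the lowest microglia library. Olfml3, a secreted glycoprotein long used as a microglia marker, stood at 17.7, 14.51 and 16.4 CPM in BAM and 476, 540.2 and 313 CPM in microglia. Olfml3 differed by -4.77 ± 0.36 on the log2 scale (adjusted p = 2.70e-11). Spint1, an inhibitor of the protease matriptase, stood at 6.97, 5.16 and 5.87 CPM in BAM and 148, 185 and 139.9 CPM in microglia, a log2 fold change of -4.72 ± 0.45 (adjusted p = 3.26e-09). Sparc, a collagen-binding matrix protein, stood at 15.7, 8.10 and 9.27 CPM in BAM and 324, 369.6 and 153 CPM in microglia. Sparc differed by -4.68 ± 0.45 on the log2 scale (adjusted p = 3.68e-09). Within microglia, replicate 3 had the lowest Olfml3 and Sparc levels, yet both stayed above every BAM library.

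Lair1, an inhibitory receptor for collagen, stood at 16.8, 19.5 and 21.6 CPM in BAM and 348, 283 and 305 CPM in microglia. Lair1 differed by -4.01 ± 0.28 on the log2 scale (adjusted p = 1.89e-11). Tmem119, a membrane protein of microglia, stood at 44.0, 31.8 and 46.9 CPM in BAM and 529, 669 and 554 CPM in microglia, a log2 fold change of -3.84 ± 0.28 (adjusted p = 1.89e-11). Sgk1, a kinase induced by serum and glucocorticoids, stood at 25.1, 24.9 and 13.3 CPM in BAM and 281, 248 and 277 CPM in microglia. Sgk1 differed by -3.67 ± 0.33 on the log2 scale (adjusted p = 1.02e-09). All of these separated the populations without overlap. Spsb1, which feeds targets to ubiquitin ligases, had 7.52 to 8.72 CPM in BAM and 139 to 164 CPM in microglia (log2 fold change -4.22), and Plxdc2, a plexin-domain membrane protein, had 12.7 to 14.8 CPM in BAM and 187 to 263 CPM in microglia (-3.99). Rtn4rl1, a receptor related to the Nogo receptor, had 3.06 to 4.16 CPM in BAM and 80.7 to 105 CPM in microglia (-4.56), and Neurl3, a ubiquitin ligase, had 5.87 to 10.96 CPM in BAM and 119 to 131 CPM in microglia (-3.91). Amz1, a metallopeptidase, had 6.13 to 11.7 CPM in BAM and 116 to 139.6 CPM in microglia (-3.88), and Lhfpl2, a tetraspan membrane protein, had 6.95 to 13.2 CPM in BAM and 111 to 135 CPM in microglia (-3.57). The 15 genes with the largest differences each way did not overlap between populations in all 30 cases, as may follow from their choice by fold change.

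RefSeq promoter windows (GRCm38.p6, 250 bases before to 50 after the gene start) existed for 8 of the 15 leading genes higher in BAM and for 12 of the 15 lower, 20 of 30 in all. They were searched on both strands for short motifs of macrophage regulators. The letters GAGGAAGT, bound by PU.1 and related ETS factors, were in 1 of the 8 and in 0 of the 12, against 3.2% of all 32851 windows. The AP-1 letters TGANTCA were in 1 (Cav2) and in 2 (F11r and Spint1), against 7.81%. The letters TGCTGAC, the core bound by MAF factors, were in 1 (Fcna) and in 1 (Sparc), against 4.67%. The SMAD letters GTCTAGAC (0.213% of all windows), the E-box TCACGTGA of Bhlhe40 and Bhlhe41 (0.974%) and the MEF2 motif (0.557%) were in none of the 20. TGANTCA, GTCTAGAC and TCACGTGA read the same on both strands, TGCTGAC and TGANTCA can share letters, and no 2 matches overlapped in these genes. The 5 promoters with a match wholly before the gene start are printed, as the 250 bases 5′ to 3′ along the gene that end just before the start, with the match in capitals.
Pf4 promoter, chr5:90772185-90772434, plus strand: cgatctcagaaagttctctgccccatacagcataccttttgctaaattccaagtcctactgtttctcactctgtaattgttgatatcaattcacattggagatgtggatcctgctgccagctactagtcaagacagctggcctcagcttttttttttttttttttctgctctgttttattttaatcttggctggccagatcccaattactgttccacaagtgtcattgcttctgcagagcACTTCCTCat
Fcna promoter, chr2:25627975-25628224, minus strand: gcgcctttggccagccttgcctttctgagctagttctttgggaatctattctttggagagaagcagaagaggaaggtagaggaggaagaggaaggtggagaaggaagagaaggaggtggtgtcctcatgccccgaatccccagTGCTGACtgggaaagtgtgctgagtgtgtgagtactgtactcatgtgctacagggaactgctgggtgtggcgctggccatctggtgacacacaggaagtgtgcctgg
Cav2 promoter, chr6:17280935-17281184, plus strand: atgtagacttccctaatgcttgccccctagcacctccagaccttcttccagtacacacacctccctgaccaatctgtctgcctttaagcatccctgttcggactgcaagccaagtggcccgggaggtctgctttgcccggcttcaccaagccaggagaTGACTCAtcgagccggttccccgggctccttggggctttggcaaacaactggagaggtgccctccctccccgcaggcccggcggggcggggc
F11r promoter, chr1:171437311-171437560, plus strand: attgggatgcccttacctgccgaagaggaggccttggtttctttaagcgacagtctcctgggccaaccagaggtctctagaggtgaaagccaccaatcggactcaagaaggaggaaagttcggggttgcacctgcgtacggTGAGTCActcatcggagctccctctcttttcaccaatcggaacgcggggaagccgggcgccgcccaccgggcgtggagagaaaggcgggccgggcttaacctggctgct
Sparc promoter, chr11:55420081-55420330, minus strand: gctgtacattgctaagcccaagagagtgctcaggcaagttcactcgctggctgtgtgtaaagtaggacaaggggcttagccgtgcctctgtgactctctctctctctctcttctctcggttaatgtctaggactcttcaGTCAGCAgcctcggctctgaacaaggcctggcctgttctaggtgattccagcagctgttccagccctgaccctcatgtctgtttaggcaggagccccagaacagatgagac
The capitals mark the PU.1 and ETS letters on the opposite strand in Pf4, the MAF core in Fcna, AP-1 letters in Cav2 and F11r, and the MAF core on the opposite strand in Sparc. A match is a description of these letters and does not make a binding site.

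The sort labels were set beside lists of defining genes. These genes were chosen with earlier results of these data known and include leading genes such as Fcna and Serpine2. Their counts are therefore no independent check of the sort. The surface genes among them, such as Ptprc, Itgam, Adgre1 and Mrc1, may have been used in the sort, which the labels do not describe, and a difference in a gene of the gate cannot be told apart from the sort's choice. Among 10 pan-macrophage markers none was higher in BAM (0 at an unadjusted p under 0.05 with edgeR, and 0 with DESeq2) and 3 were lower, with a median log2 fold change of -0.26. Csf1r, the receptor of colony-stimulating factor 1, stood at 5303, 5189 and 5160.2 CPM in BAM and 6288, 6598 and 7371 CPM in microglia, a log2 fold change of -0.37 ± 0.12 (adjusted p = 0.0506) that was not called. Its groups did not overlap, and it was called lower in BAM with DESeq2 (adjusted p = 0.0245), with a replicate block of neighbouring library numbers (0.0413) and in a fit of the compared groups alone (0.049). Adgre1, which encodes F4/80, stood at 1414, 1377 and 1387 CPM in BAM and 1249, 1226 and 1603 CPM in microglia, with a log2 fold change of 0.03 ± 0.15 (adjusted p = 1). Spi1, which encodes PU.1, stood at 453, 454 and 403 CPM in BAM and 511, 532 and 263 CPM in microglia, and microglia replicate 3 had the lowest level of all 6 libraries. Cd68, a protein of late endosomes, stood at 383, 367 and 341 CPM in BAM and 414, 409.6 and 199 CPM in microglia, where the same library was again lowest, and neither gene was called. Ptprc, the pan-leukocyte phosphatase CD45, was lower in BAM, at 484, 459 and 436 CPM in BAM and 784, 670.0 and 1008 CPM in microglia. Ptprc differed by -0.84 ± 0.15 on the log2 scale (adjusted p = 2.79e-04). Itgam, the integrin chain CD11b, stood at 20.6, 23.3 and 18.2 CPM in BAM and 89.5, 83.8 and 87.0 CPM in microglia. Itgam differed by -2.07 ± 0.20 on the log2 scale (adjusted p = 3.66e-09). Both groups held these macrophage genes in every library, with less Ptprc and Itgam in BAM. Aif1, the actin-binding protein IBA1, had 39.3 to 51.6 CPM in BAM and 68.6 to 93.3 CPM in microglia and a log2 fold change of -0.76 ± 0.20 (adjusted p = 0.0131), and was not called without BAM replicate 2 or microglia replicate 2 (adjusted p from 0.0938 to 0.102).

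Of 22 BAM core genes, 17 were higher and 1 was lower in BAM, with a median log2 fold change of 1.99, against 2.84% and 3.83% of all genes. Mrc1, the mannose receptor CD206, stood at 5753, 6195 and 6229.9 CPM in BAM and 1541, 1696 and 2307 CPM in microglia, a log2 fold change of 1.71 ± 0.31 (adjusted p = 2.52e-04). Dab2, an endocytic adaptor, stood at 6888, 7505 and 7291 CPM in BAM and 1948, 2203 and 2793 CPM in microglia. Dab2 differed by 1.64 ± 0.29 on the log2 scale (adjusted p = 1.77e-04). Stab1, a receptor that clears modified matrix and lipoproteins, stood at 5188, 5212 and 6116 CPM in BAM and 1944, 2326 and 2843 CPM in microglia, a log2 fold change of 1.22 ± 0.19 (adjusted p = 1.99e-05). Each of the 3 was present in every microglia library as well, at 1541 CPM or more, so these genes differed in degree. Per length of transcript, Mrc1 averaged 951 RPKM in BAM and 290.1 RPKM in microglia, whereas Lyve1 averaged 477 RPKM in BAM and 7.39 RPKM in microglia. Cd163, a receptor for haemoglobin bound to haptoglobin, stood at 4.48, 13.7 and 10.2 CPM in BAM and 0, 2.91 and 0.758 CPM in microglia. Cd163 differed by 2.81 ± 0.83 on the log2 scale (adjusted p = 0.0326). It was not called without BAM replicate 2 or 3 or microglia replicate 1 or 3 (adjusted p from 0.0676 to 0.129), and without microglia replicate 2 its log2 fold change was 4.61. Timd4, a receptor for phosphatidylserine on dying cells, stood at 31.2, 34.8 and 18.2 CPM in BAM and 7.07, 7.93 and 4.55 CPM in microglia, with a log2 fold change of 2.10 ± 0.61 (adjusted p = 0.0284), and was not called without any one library but BAM replicate 3 (adjusted p from 0.0605 to 0.127). Ms4a7, a tetraspan protein of brain border macrophages, stood at 62.7, 70.0 and 41.6 CPM in BAM and 32.0, 31.5 and 16.8 CPM in microglia, a log2 fold change of 1.12 ± 0.52 (adjusted p = 0.239) that was not called. Tgfbi, a matrix protein induced by TGF-beta, went the other way, with 285, 304 and 282 CPM in BAM and 426, 411 and 425 CPM in microglia and a log2 fold change of -0.54 ± 0.12 (adjusted p = 0.00333).

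Of 23 microglia core genes, 18 were lower and none was higher in BAM (0 at an unadjusted p under 0.05 with edgeR, and 0 with DESeq2), with a median log2 fold change of -2.06. Sall1, the zinc finger factor of microglial identity, stood at 0.697, 0.931 and 0 CPM in BAM and 40.5, 60.6 and 56.1 CPM in microglia. Sall1 differed by -6.56 ± 0.90 on the log2 scale (adjusted p = 2.92e-06). This gene was near 0 in BAM, and its log2 fold change was -7.32 without BAM replicate 2. P2ry12, the receptor for ADP that guides microglial processes, stood at 157, 154 and 156 CPM in BAM and 726, 639 and 588 CPM in microglia. P2ry12 differed by -2.07 ± 0.20 on the log2 scale (adjusted p = 4.04e-09). The BAM libraries were nearly equal for P2ry12 and far from 0. Cx3cr1, the receptor for fractalkine, stood at 2039, 2047 and 2018 CPM in BAM and 3633, 4136 and 4195 CPM in microglia, a log2 fold change of -0.97 ± 0.14 (adjusted p = 8.29e-06). Trem2, a receptor for lipids and apolipoproteins, stood at 164, 143 and 115 CPM in BAM and 346, 375 and 239 CPM in microglia. Trem2 differed by -1.19 ± 0.22 on the log2 scale (adjusted p = 2.99e-04). Apoe, a carrier of lipids, stood at 9082, 8087 and 7839 CPM in BAM and 13242, 13446 and 5577 CPM in microglia. Its log2 fold change of -0.37 ± 0.28 (adjusted p = 0.549) was not called, and microglia replicate 3 lay below all BAM libraries while the other microglia libraries lay above them. Fcrls, Crybb1, Mef2c, Bin1 and Csf1r were the 5 core genes that were not called.

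**Figure D2:**
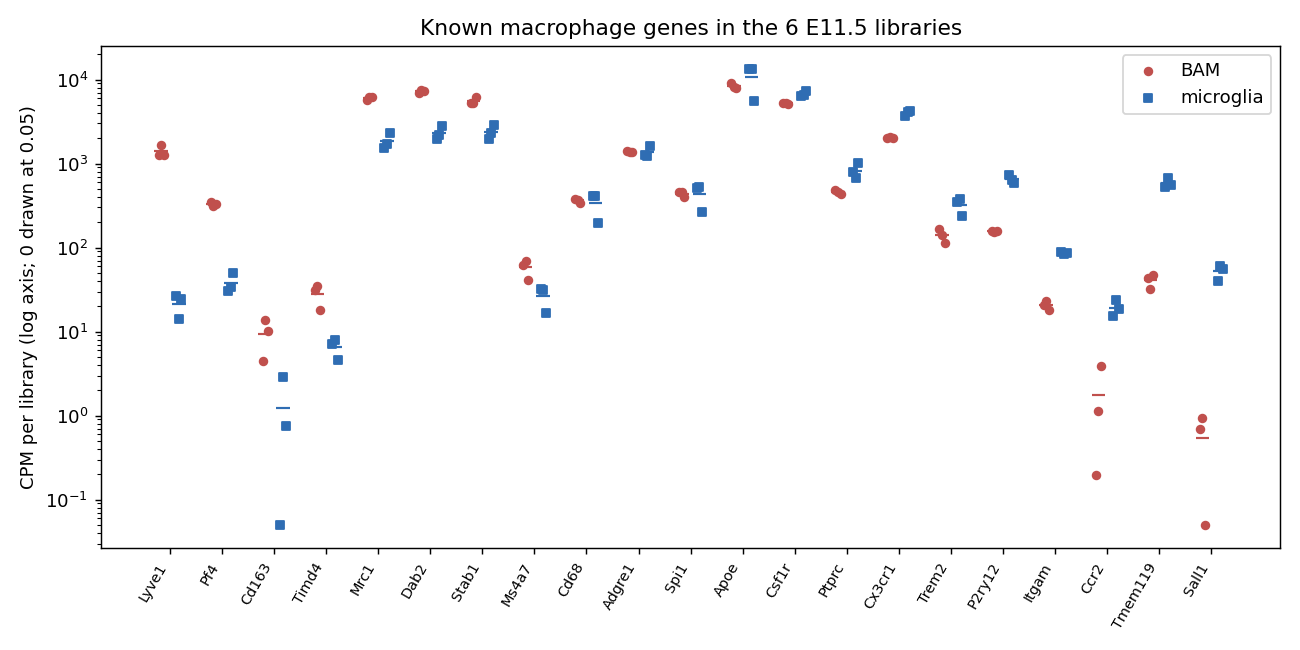
Level of 21 known macrophage genes in each E11.5 library, in CPM on a log axis, with BAM as red circles on the left of each pair, microglia as blue squares on the right and short bars at the mean of 3 libraries. Genes run from the largest to the smallest log2 fold change: Lyve1 and Pf4 stand clear at one end, Tmem119 and Sall1 at the other, and Cd68, Adgre1 and Spi1 overlap between the populations.

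Among 27 macrophage transcription factors, 2 were higher and 9 lower in BAM (median log2 fold change -0.68). Etv1, an ETS factor, stood at 67.5, 58.2 and 66.1 CPM in BAM and 26.6, 18.8 and 22.0 CPM in microglia. Etv1 differed by 1.51 ± 0.21 on the log2 scale (adjusted p = 5.14e-06). Maf, which encodes c-Maf, stood at 351, 382 and 346 CPM in BAM and 216, 194 and 196 CPM in microglia, a log2 fold change of 0.83 ± 0.19 (adjusted p = 0.00383). Both were higher in every BAM library than in any microglia library. Bhlhe41, a repressor that binds E-boxes, stood at 6.18, 7.67 and 10.3 CPM in BAM and 78.8, 80.2 and 70.8 CPM in microglia, a log2 fold change of -3.24 ± 0.32 (adjusted p = 4.49e-09). Irf8, a factor needed for microglial development, stood at 286, 252 and 295 CPM in BAM and 496, 578 and 523 CPM in microglia. Irf8 differed by -0.94 ± 0.12 on the log2 scale (adjusted p = 4.99e-07). Sall3, a relative of Sall1, stood at 0, 2.94 and 2.61 CPM in BAM and 26.96, 36.0 and 30.8 CPM in microglia. Sall3 differed by -4.04 ± 0.62 on the log2 scale (adjusted p = 2.08e-05). Runx1 (-0.69), Irf5 (-0.87), Ikzf1 (-0.70) and Mef2a (-0.68) were also lower on the log2 scale, Mef2a with overlapping groups. Ikzf1 was not called without any one library but microglia replicate 2 (adjusted p from 0.0736 to 0.149), and Mef2a was not called without any one library but microglia replicate 2 (adjusted p from 0.0517 to 0.242). Spi1, Zeb2, Mitf, Rxra and Cebpa were among the 16 that were not called.

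In the TGF-beta pathway, 8 of 22 genes were lower in BAM and none was higher (median log2 fold change -1.17). With edgeR, 1 gene had an unadjusted p under 0.05 in the upward direction, and DESeq2 called 1 higher. Tgfbr1, the signalling receptor, stood at 174, 173 and 151 CPM in BAM and 1002, 770.1 and 1207 CPM in microglia, a log2 fold change of -2.58 ± 0.32 (adjusted p = 4.63e-07). Skil, a repressor that SMAD signalling induces, stood at 22.4, 30.9 and 35.8 CPM in BAM and 181, 170.5 and 175 CPM in microglia. Skil differed by -2.56 ± 0.28 on the log2 scale (adjusted p = 4.08e-08). Pmepa1, a feedback inhibitor of the pathway, stood at 0.299, 0.860 and 0.703 CPM in BAM and 15.7, 17.8 and 6.37 CPM in microglia, a log2 fold change of -4.38 ± 0.56 (adjusted p = 7.80e-07). In each case the lowest microglia library lay above the highest BAM library. Itgb5, a chain of the integrins that release TGF-beta from its latent form, stood at 64.9, 62.2 and 88.3 CPM in BAM and 239.9, 246 and 201 CPM in microglia. Itgb5 differed by -1.67 ± 0.22 on the log2 scale (adjusted p = 9.81e-07). Its partner Itgav (-1.77), the feedback inhibitor Smad7 (-3.30), the corepressor Ski (-1.11) and the second receptor Tgfbr2 (-0.57) were lower on the log2 scale too, of which Tgfbr2 was not called without BAM replicate 2 or 3 or microglia replicate 3 (adjusted p from 0.0536 to 0.0633). Without microglia replicate 1, 1 gene of the pathway was called higher. The ligand Tgfb1 (-0.43) and the signal carriers Smad2 (0.31), Smad3 (-0.41) and Smad4 (0.02) were not called.

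Of 7 genes of the colony-stimulating factors, 4 were lower in BAM and none was higher (0 at an unadjusted p under 0.05 with edgeR, and 0 with DESeq2). Csf1, the ligand of Csf1r, stood at 5.48, 5.41 and 6.12 CPM in BAM and 50.5, 57.3 and 49.7 CPM in microglia. Csf1 differed by -3.21 ± 0.36 on the log2 scale (adjusted p = 7.50e-08). Csf3r, the receptor for granulocyte colony-stimulating factor, stood at 48.9, 50.2 and 69.6 CPM in BAM and 214, 191 and 232 CPM in microglia, a log2 fold change of -1.92 ± 0.20 (adjusted p = 1.09e-08). Both chains of the receptor for granulocyte-macrophage colony-stimulating factor were lower, Csf2ra at 76.5, 68.6 and 65.2 CPM in BAM and 146, 179 and 119 CPM in microglia and Csf2rb at 140.5, 122 and 162 CPM in BAM and 239.8, 273 and 260.4 CPM in microglia. Among 20 growth factors and their binders, 3 were higher and 1 was lower (median log2 fold change 0.39). Bmp2, a bone morphogenetic protein, stood at 24.3, 40.9 and 31.9 CPM in BAM and 7.38, 6.37 and 5.39 CPM in microglia. Bmp2 differed by 2.34 ± 0.55 on the log2 scale (adjusted p = 0.0046). Igf1, the insulin-like growth factor, stood at 292, 284 and 239.5 CPM in BAM and 114, 82.7 and 96.4 CPM in microglia, a log2 fold change of 1.47 ± 0.26 (adjusted p = 1.57e-04). Together with Igfbp4 these made up the 3 that were higher. The single gene that was lower was Pdgfb, a platelet-derived growth factor chain, at 1.64, 1.22 and 1.99 CPM in BAM and 11.9, 15.3 and 7.09 CPM in microglia. Pdgfb differed by -2.82 ± 0.62 on the log2 scale (adjusted p = 0.00247).

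Chemokine ligands leaned towards BAM and chemokine receptors towards microglia. Of 16 tested ligands, 5 were higher and 2 lower (median log2 fold change 0.74), and of 11 receptors 1 was higher and 6 were lower (median -0.97). Ccl7, a monocyte attractant, stood at 61.5, 83.5 and 49.8 CPM in BAM and 19.96, 21.8 and 9.10 CPM in microglia. Ccl7 differed by 1.93 ± 0.38 on the log2 scale (adjusted p = 5.85e-04). Cxcl16, the ligand of Cxcr6, was one of the 2 that were lower and stood at 5.93, 5.19 and 5.25 CPM in BAM and 32.1, 33.7 and 18.2 CPM in microglia, a log2 fold change of -2.36 ± 0.39 (adjusted p = 6.67e-05). It lay lower in every BAM library than in any microglia library. Ccl24 and Pf4 are given above, and Cxcl12 (3.40), the ligand of Cxcr4, and Ccl9 (0.75) were the other ligands that were higher on the log2 scale. Cxcl12 was not called without microglia replicate 2 or 3 (adjusted p from 0.0881 to 0.0996) and was at 6.16 without replicate 1, and Ccl9 was not called without BAM replicate 1 or 2 or microglia replicate 3 (adjusted p from 0.0611 to 0.153). The second lower ligand, Ccl4 (-1.60), was not called without BAM replicate 2 or 3 or microglia replicate 1 or 2 (adjusted p from 0.0534 to 0.126). Cxcr3, a receptor best known from T cells, was the receptor higher in BAM, at 35.8, 24.0 and 23.6 CPM in BAM and 6.80, 5.27 and 4.82 CPM in microglia. Cxcr3 differed by 2.30 ± 0.42 on the log2 scale (adjusted p = 2.62e-04). Cxcr2, a receptor best known from neutrophils, stood at 1.89, 4.48 and 1.08 CPM in BAM and 46.1, 42.4 and 23.6 CPM in microglia, a log2 fold change of -3.89 ± 0.56 (adjusted p = 6.12e-06), or -4.66 without BAM replicate 2. Neither receptor overlapped between the populations. Ccr2, the receptor of inflammatory monocytes, stood at 0.199, 1.15 and 3.93 CPM in BAM and 15.5, 23.6 and 18.47 CPM in microglia, a log2 fold change of -3.43 ± 0.87 (adjusted p = 0.0105), and was not called without BAM replicate 1 or 2 (adjusted p from 0.0662 to 0.0669). Without BAM replicate 3 its log2 fold change was -4.77. Cx3cr1 is given above, and Ccr1 (-0.68) and Ccrl2 (-2.68) were also lower on the log2 scale, of which Ccrl2 was not called without BAM replicate 2 or microglia replicate 1 (adjusted p from 0.0606 to 0.0879).

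Both interleukin-1 cytokine genes were lower in BAM. Il1a stood at 1.99, 0.752 and 1.41 CPM in BAM and 54.0, 39.5 and 27.1 CPM in microglia. Il1a differed by -4.88 ± 0.70 on the log2 scale (adjusted p = 6.72e-06). Il1b, the secreted fever cytokine, stood at 3.19, 2.01 and 0.621 CPM in BAM and 83.9, 67.7 and 33.3 CPM in microglia. Il1b differed by -5.00 ± 0.99 on the log2 scale (adjusted p = 7.71e-04). In the same list Il18, a cytokine matured by caspase 1, was higher in BAM, at 39.7, 44.6 and 37.8 CPM in BAM and 14.8, 12.6 and 12.9 CPM in microglia, with a log2 fold change of 1.60 ± 0.32 (adjusted p = 7.96e-04). So the list of 13 was split, with 2 higher and 3 lower. The third lower gene was Nlrp3, a sensor of the inflammasome (-1.40), and the other higher one was the cytokine Il6, at 1.195, 1.15 and 0 CPM in BAM and 0, 0 and 0 CPM in microglia. Il6 had no count in microglia and overlapped there with BAM replicate 3, and it was not called without any one library but BAM replicate 3 (adjusted p from 0.0774 to 0.13). Of 20 immediate early and heat shock genes, 6 were lower in BAM and none was higher (2 at an unadjusted p under 0.05 with edgeR, and 0 called by DESeq2). Junb, a subunit of AP-1, stood at 87.9, 58.0 and 100.4 CPM in BAM and 354, 332 and 235 CPM in microglia. Junb differed by -1.90 ± 0.43 on the log2 scale (adjusted p = 0.00336). Egr2, an early growth response factor, stood at 14.8, 14.55 and 6.37 CPM in BAM and 105, 48.9 and 35.9 CPM in microglia, a log2 fold change of -2.41 ± 0.43 (adjusted p = 1.90e-04). Egr3 (-3.71, or -4.33 without BAM replicate 1), the orphan nuclear receptor Nr4a1 (-2.71), Ier3 (-1.75) and Atf3 (-2.04) were the other 4 on the log2 scale, and Fos (-0.14), Jun (-0.29) and Egr1 (-0.74) were not called. Leaving out any one BAM library left 3 genes of this list called. Nr4a1 was not called without any one BAM library (adjusted p from 0.0643 to 0.0728), Ier3 was not called without any one library but microglia replicate 3 (adjusted p from 0.0669 to 0.142), and Atf3 was not called without any one library but microglia replicate 3 (adjusted p from 0.052 to 0.157).

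Scavenger and endocytic receptors and C-type lectins were the receptor groups with the most genes higher in BAM, 5 of 16 and 6 of 14, with 2 lower in each. Msr1, the class A scavenger receptor, stood at 158, 166 and 131 CPM in BAM and 48.2, 72.9 and 69.2 CPM in microglia. Msr1 differed by 1.26 ± 0.33 on the log2 scale (adjusted p = 0.0126). Clec4a1, one of the lectins of the Clec4a cluster, stood at 299, 264 and 269.6 CPM in BAM and 125, 94.2 and 82.0 CPM in microglia. Clec4a1 differed by 1.47 ± 0.28 on the log2 scale (adjusted p = 4.32e-04). Mgl2, the close relative of Clec10a, stood at 34.5, 42.4 and 42.2 CPM in BAM and 4.14, 3.64 and 2.81 CPM in microglia, a log2 fold change of 3.49 ± 0.58 (adjusted p = 6.80e-05). Reads of Mgl2 and Clec10a, and of the Clec4a genes, could be shared between near-identical copies, so their split is uncertain. On the other side, Clec7a, the receptor for fungal glucans, stood at 24.0, 17.1 and 19.03 CPM in BAM and 95.4, 66.4 and 85.7 CPM in microglia. Clec7a differed by -2.04 ± 0.30 on the log2 scale (adjusted p = 9.50e-06). Scarb2, a lysosomal membrane receptor, stood at 133, 123 and 129 CPM in BAM and 299, 300.2 and 274 CPM in microglia, a log2 fold change of -1.18 ± 0.14 (adjusted p = 2.49e-07). Lrp1, a large endocytic receptor, stood at 303, 267 and 416 CPM in BAM and 603, 741 and 791 CPM in microglia. Lrp1 differed by -1.11 ± 0.17 on the log2 scale (adjusted p = 1.68e-05). Mrc1 belonged to both lists and Cd163, Stab1 and Colec12 also to the BAM core. Clec4a3 (1.13) and Clec4a2 (0.92) were the other lectins higher on the log2 scale, of which Clec4a3 was not called without microglia replicate 3 (adjusted p = 0.105) and Clec4a2 was not called without BAM replicate 1 or 2 or microglia replicate 3 (adjusted p from 0.0627 to 0.143). Clec12a (-1.12), the second lower lectin, was not called without BAM replicate 2 or microglia replicate 2 (adjusted p from 0.0633 to 0.109). Msr1 was not called without microglia replicate 1 (adjusted p = 0.0791), and without that library 3 scavenger receptors were called higher.

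Inhibitory and paired receptors were the reverse, with 8 of 19 lower in BAM and 1 higher (median log2 fold change -0.88). Cd33, a sialic acid-binding lectin, stood at 195, 225 and 190.2 CPM in BAM and 601, 460.0 and 606 CPM in microglia. Cd33 differed by -1.45 ± 0.19 on the log2 scale (adjusted p = 9.70e-07). Pilra, a paired inhibitory receptor, stood at 1.10, 2.72 and 4.18 CPM in BAM and 57.4, 55.2 and 34.0 CPM in microglia, a log2 fold change of -4.18 ± 0.60 (adjusted p = 6.63e-06). Cd200r1, the receptor for the inhibitory ligand CD200, was the gene that was higher, at 137, 137 and 93.1 CPM in BAM and 35.6, 38.4 and 30.7 CPM in microglia. Cd200r1 differed by 1.81 ± 0.24 on the log2 scale (adjusted p = 1.76e-06). Tyrobp, the DAP12 adaptor that signals for Trem2, was among the lower ones (-0.52) and was not called without any one library but microglia replicate 1 (adjusted p from 0.0706 to 0.191). Fcgrt, the neonatal Fc receptor that recycles immunoglobulin, stood at 988, 999.6 and 955 CPM in BAM and 353, 366 and 225 CPM in microglia, a log2 fold change of 1.64 ± 0.24 (adjusted p = 9.23e-06). It was the 1 gene called of 7 Fc receptor genes, with none lower (1 at an unadjusted p under 0.05 with edgeR, 0 with DESeq2, and 1 called without microglia replicate 3). Ms4a4c (-2.56) was the 1 called of 9 Ms4a genes, a family of close copies whose reads may be split, with none higher (2 at an unadjusted p under 0.05 with edgeR, 0 with DESeq2, and 1 called without microglia replicate 1). Of 14 Toll-like receptor genes 1 was higher and 3 were lower, among them Tlr13 at 78.6, 118 and 75.4 CPM in BAM and 181, 222 and 228 CPM in microglia (-1.21). Tlr5, the receptor for flagellin, stood at 12.9, 17.4 and 18.9 CPM in BAM and 1.25, 0.864 and 7.21 CPM in microglia, with a log2 fold change of 2.42 ± 0.66 (adjusted p = 0.0175), and was not called without microglia replicate 1 or 2 (adjusted p from 0.101 to 0.112). Its log2 fold change was 3.96 without microglia replicate 3. Tlr12 (-3.05) was not called without BAM replicate 3 (adjusted p = 0.0575), and Tlr2 (-0.62) was not called without any one library but microglia replicate 1 (adjusted p from 0.0613 to 0.105). Of 13 purinergic genes 5 were lower and none higher (0 at an unadjusted p under 0.05 with edgeR, and 0 with DESeq2). Besides P2ry12, these were P2ry13 at 155 to 203 CPM in BAM and 339.6 to 448 CPM in microglia (-1.12), the channel P2rx1 at 9.06 to 15.1 CPM in BAM and 41.5 to 49.9 CPM in microglia (-1.89), P2ry14 (-1.99) and the adenosine receptor Adora3 (-2.34). Of these, P2ry14 was not called without any one BAM library or microglia replicate 1 (adjusted p from 0.0523 to 0.0887).

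Most integrin genes were lower in BAM. Of 17 genes 9 were lower and none was higher (1 at an unadjusted p under 0.05 with edgeR, and 0 with DESeq2), with a median log2 fold change of -1.47. Itgal, the alpha chain of LFA-1, stood at 49.3, 56.7 and 56.4 CPM in BAM and 185, 223 and 300.4 CPM in microglia. Itgal differed by -2.13 ± 0.20 on the log2 scale (adjusted p = 3.55e-09). Itgb2, the beta chain shared by leukocyte integrins, stood at 85.6, 68.1 and 97.1 CPM in BAM and 229, 222 and 242 CPM in microglia. Itgb2 differed by -1.47 ± 0.16 on the log2 scale (adjusted p = 6.55e-08). Itga6, a laminin-binding chain, stood at 186, 163 and 159 CPM in BAM and 335, 343 and 394 CPM in microglia, a log2 fold change of -1.08 ± 0.13 (adjusted p = 4.42e-07). These differences were larger than the spread within either group. Itgax, the chain CD11c, stood at 0, 0.430 and 2.57 CPM in BAM and 16.1, 14.4 and 20.9 CPM in microglia, with a log2 fold change of -4.07 ± 0.79 (adjusted p = 5.79e-04), and of -6.13 without BAM replicate 3. Itgb1 (0.02), Itga4 (0.49) and Itga9 (-0.11) were not called.

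Of 21 axon guidance genes 6 were higher and 2 lower in BAM. Sema6d, a membrane semaphorin, stood at 44.0, 38.5 and 38.9 CPM in BAM and 6.84, 11.6 and 15.1 CPM in microglia. Sema6d differed by 1.85 ± 0.34 on the log2 scale (adjusted p = 3.18e-04). Plxnd1, a semaphorin receptor, stood at 70.9, 57.2 and 86.0 CPM in BAM and 24.9, 37.1 and 28.8 CPM in microglia, a log2 fold change of 1.23 ± 0.22 (adjusted p = 1.97e-04). The coreceptors Nrp2 (0.88) and Nrp1 (0.58) were higher as well. Sema4d, a semaphorin that is shed from leukocytes, was the clearest exception, at 61.4, 51.4 and 54.2 CPM in BAM and 298, 346 and 355 CPM in microglia. Sema4d differed by -2.58 ± 0.26 on the log2 scale (adjusted p = 6.77e-09). Sema4a (0.71) and Sema4b (0.69) were the other 2 called higher and Sema4c (-1.08) the other called lower. Sema4a was not called without BAM replicate 1 or 3 or microglia replicate 2 or 3 (adjusted p from 0.0749 to 0.249), Sema4b was not called without BAM replicate 2 or 3 or microglia replicate 1 or 2 (adjusted p from 0.116 to 0.158), Nrp1 was not called without BAM replicate 1 or microglia replicate 1 or 2 (adjusted p from 0.0736 to 0.0974), and Sema4c was not called without any one library (adjusted p from 0.0526 to 0.167). Among 17 metalloproteases and their inhibitors 1 was higher and 2 lower. Mmp9, a gelatinase, stood at 8.77, 8.03 and 19.5 CPM in BAM and 0.781, 1.23 and 0.228 CPM in microglia. Mmp9 differed by 3.95 ± 0.65 on the log2 scale (adjusted p = 6.06e-05). The other gelatinase, Mmp2, went the opposite way, at 5.08, 1.003 and 8.11 CPM in BAM and 31.3, 42.2 and 40.0 CPM in microglia, with a log2 fold change of -3.01 ± 0.45 (adjusted p = 1.39e-05). Mmp9 had a log2 fold change of 4.58 without microglia replicate 2, and Mmp2 of -3.66 without BAM replicate 3. Of 11 protease inhibitors 1 was higher and 4 were lower, with Serpinb6a, an intracellular serpin, at 295, 374 and 285 CPM in BAM and 105, 102 and 46.1 CPM in microglia and a log2 fold change of 1.91 ± 0.30 (adjusted p = 3.03e-05). Serpine2 and Spint1 are given above. Cst7, a cystatin of endolysosomes, held 2 counts over the BAM libraries and 71 over microglia, 26.7-fold lower with a 95% counting interval of 7.12 to 225, and was not called without BAM replicate 1 or 3 or microglia replicate 2 (adjusted p from 0.0858 to 0.131). The abundant cystatin Cst3 (-0.65) was not called without any one library but microglia replicate 3 (adjusted p from 0.0521 to 0.187).

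Genes for taking up dying cells were called in both directions. Gas6, a bridge between phosphatidylserine and the TAM receptors, stood at 1939, 1873 and 1815 CPM in BAM and 661, 657 and 808 CPM in microglia. Gas6 differed by 1.40 ± 0.21 on the log2 scale (adjusted p = 8.70e-06). Axl, one of those TAM receptors, stood at 43.2, 32.6 and 41.2 CPM in BAM and 358, 461 and 434 CPM in microglia, a log2 fold change of -3.42 ± 0.42 (adjusted p = 4.63e-07). The ligand was thus higher and this receptor lower in BAM, while the related receptor Mertk had a log2 fold change of -0.48 and was not called. In all, 4 of 15 genes were higher and 4 lower, the others being Stab1, Timd4 and Dock1 (0.77) upwards and Itgb5, Itgav and Itgb3 (-3.49, or -4.83 without BAM replicate 2) downwards. Dock1, which drives engulfment through Rac, was not called without any one library but microglia replicate 3 (adjusted p from 0.0696 to 0.17). Without microglia replicate 1 or 2 or BAM replicate 1 or 2, 2 genes were called higher. Of 16 complement genes 3 were higher and 5 lower. C5ar1, the receptor for the anaphylatoxin C5a, stood at 469.9, 505 and 461 CPM in BAM and 149, 172 and 182 CPM in microglia. C5ar1 differed by 1.51 ± 0.23 on the log2 scale (adjusted p = 1.22e-05). Cfp, which encodes properdin, had 97.7 to 132 CPM in BAM and 33.4 to 50.7 CPM in microglia (1.47), and the complement-binding receptor Vsig4 had 1.07 to 1.49 CPM in BAM and no count in microglia. The 5 that were lower were C5ar2 (-1.14), Cfb (-2.13) and the integrin chains Itgb2, Itgam and Itgax, of which C5ar2 was not called without BAM replicate 1 or 2 or microglia replicate 2 (adjusted p from 0.0603 to 0.0987) and Cfb was not called without BAM replicate 2 or 3 or microglia replicate 2 or 3 (adjusted p from 0.051 to 0.144). C1qa (-0.75), C1qb (-0.39) and C1qc (-0.20), the chains of C1q, were not called.

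Lysosomal genes were lower in BAM where they were called, in 9 of 23 cases with none higher (0 at an unadjusted p under 0.05 with edgeR, and 0 with DESeq2). Ctss, a cathepsin active at neutral pH, stood at 496, 442 and 472 CPM in BAM and 2726, 2740.2 and 1183 CPM in microglia. Ctss differed by -2.24 ± 0.22 on the log2 scale (adjusted p = 7.03e-09). Psap, the precursor of the saposins, stood at 2303, 2239 and 2239 CPM in BAM and 5182, 5594 and 5641 CPM in microglia, a log2 fold change of -1.28 ± 0.13 (adjusted p = 7.44e-09). Ctsd, the aspartic cathepsin, stood at 1685, 1589 and 1609.5 CPM in BAM and 4395, 4216 and 3382 CPM in microglia. Ctsd differed by -1.30 ± 0.14 on the log2 scale (adjusted p = 3.03e-08). The lowest Ctss and Ctsd levels in microglia were those of replicate 3, and they still lay above every BAM library. Ctsh (-2.04), Npc1 (-1.13), Lgmn (-0.71) and Ctsz (-0.66) were also lower on the log2 scale, and Ctsb (0.11), Ctsl (-0.20), Lamp1 (0.73) and Lamp2 (-0.09) were not called. Ctsz, whose groups overlapped, was not called without microglia replicate 1 or 2 (adjusted p from 0.0622 to 0.0968). The list's median log2 fold change was -0.20, against 0 over all genes.

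Of 15 genes of iron and haem handling, 8 were higher in BAM and 2 were lower (median log2 fold change 0.80). Slc40a1, the iron exporter ferroportin, stood at 1146, 1122 and 1179.5 CPM in BAM and 370.5, 381 and 520.1 CPM in microglia, a log2 fold change of 1.44 ± 0.28 (adjusted p = 5.70e-04). Tfrc, the transferrin receptor, stood at 213, 233 and 209 CPM in BAM and 82.9, 69.0 and 99.9 CPM in microglia. Tfrc differed by 1.38 ± 0.23 on the log2 scale (adjusted p = 8.04e-05). Slc48a1, which moves haem out of lysosomes, stood at 292, 298 and 303 CPM in BAM and 165, 187 and 159 CPM in microglia. Slc48a1 differed by 0.80 ± 0.13 on the log2 scale (adjusted p = 4.54e-05). None of these 3 overlapped between the populations. The haem-degrading enzymes Hmox1 (0.89), Blvra (1.08) and Blvrb (1.504) were higher too, and the ferritin chains Fth1 (-0.17) and Ftl1 (0.11) were not called. Slc11a1, the metal transporter NRAMP1 of phagosomes, was lower, at 316, 315 and 290.5 CPM in BAM and 615, 669 and 700.1 CPM in microglia, with a log2 fold change of -1.11 ± 0.12 (adjusted p = 4.03e-08). Hmox1 was not called without BAM replicate 2 or microglia replicate 3 (adjusted p from 0.0523 to 0.133), Blvra was not called without microglia replicate 3 (adjusted p = 0.0868), and Hfe (0.54), a sensor of iron stores, was not called without microglia replicate 3 (adjusted p = 0.0577). Without microglia replicate 3, 4 of the list were called higher. The summed level of 12 tested erythroid markers was 129 to 169 CPM in BAM and 136 to 212 CPM in microglia, and the part of red cell RNA in the iron genes was not tested.

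Among 16 lipid genes, Enpp2 was the 1 that was higher in BAM and 6 were lower. Abcg1, a sterol exporter, stood at 33.6, 39.9 and 33.6 CPM in BAM and 218, 181 and 95.2 CPM in microglia. Abcg1 differed by -2.20 ± 0.29 on the log2 scale (adjusted p = 1.49e-06). Mylip, a ubiquitin ligase that removes lipoprotein receptors, stood at 42.2, 55.1 and 37.2 CPM in BAM and 102, 97.4 and 98.7 CPM in microglia, a log2 fold change of -1.15 ± 0.18 (adjusted p = 3.25e-05). Abca1 (0.25) and Nr1h3 (0.47), the other sterol exporter and the liver X receptor alpha, were not called. Of 19 identifiers for 18 glycolysis genes, 5 were lower and 1 was higher. Slc2a1, the glucose transporter GLUT1, stood at 63.8, 69.0 and 78.3 CPM in BAM and 132, 168 and 200.3 CPM in microglia. Slc2a1 differed by -1.25 ± 0.22 on the log2 scale (adjusted p = 1.29e-04). Hk2, hexokinase 2, stood at 137, 136 and 112 CPM in BAM and 242, 299 and 289 CPM in microglia. Hk2 differed by -1.11 ± 0.18 on the log2 scale (adjusted p = 5.64e-05). Slc16a3, a lactate exporter, stood at 79.4, 79.0 and 115 CPM in BAM and 185, 243 and 249.2 CPM in microglia, a log2 fold change of -1.31 ± 0.23 (adjusted p = 1.21e-04). Pfkl (-0.79) and Pkm (-0.60) were the other 2 that were lower on the log2 scale. Without microglia replicate 3, 8 were called lower. Aldoc, an aldolase, was the higher one, with 158 counts over the BAM libraries and none in microglia, at least 70.0-fold higher when 3 counts are set over the microglia group.

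Genes of the class II pathway were at low levels in both populations, with a summed level of 25.8 to 37.7 CPM in BAM and 75.4 to 123 CPM in microglia. Of 13 genes 5 were lower in BAM and none was higher (0 at an unadjusted p under 0.05 with edgeR, and 0 with DESeq2). H2-DMa, a chain of the peptide exchanger, stood at 3.59, 0.860 and 2.48 CPM in BAM and 40.1, 46.0 and 18.3 CPM in microglia. H2-DMa differed by -3.93 ± 0.52 on the log2 scale (adjusted p = 1.58e-06). H2-DMb1, its partner, stood at 2.19, 2.29 and 1.32 CPM in BAM and 14.49, 16.2 and 8.23 CPM in microglia, a log2 fold change of -2.74 ± 0.36 (adjusted p = 1.09e-06). The antigen-presenting chains H2-Aa, H2-Ab1 and H2-Eb1 and the invariant chain Cd74 were not called. The other lower members were H2-DMb2 (-2.64), H2-Oa (-3.39) and H2-Ob, which held 1 count over the BAM libraries and 74 over microglia, 55.7-fold lower with a 95% counting interval of 9.68 to 2227. H2-Oa was not called without any one library but microglia replicate 3 (adjusted p from 0.0571 to 0.134), and reads may be split between the near-identical H2-DMb copies. In the class I pathway 2 of 12 were lower and none higher (2 at an unadjusted p under 0.05 with edgeR, and 0 with DESeq2). Tap2, a peptide transporter, had 19.8 to 24.2 CPM in BAM and 34.3 to 42.6 CPM in microglia and a log2 fold change of -0.86 ± 0.19 (adjusted p = 0.00197). Tapbp, which helps to load peptides, had 163 to 202 CPM in BAM and 234 to 261 CPM in microglia and a log2 fold change of -0.47 ± 0.15 (adjusted p = 0.0464), and it was not called without any one library but BAM replicate 3 (adjusted p from 0.0642 to 0.186).

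No interferon response gene of 21 was called with edgeR. Of these, 3 had an unadjusted p under 0.05 upwards and 2 downwards, and DESeq2 called 2 higher and 0 lower. Oas2 (1.02) and Oas1a (0.79), from a cluster of near-identical synthetases, and Rtp4 (0.87) were among the 4 with the smallest p. Few proliferation genes were called, and calls were as rare among all tested genes, at 2.84% higher and 3.83% lower. Lists this small cannot show a shortage of calls. All 20 mitosis genes missed the threshold with edgeR, 5 had an unadjusted p under 0.05 upwards and 0 downwards, and DESeq2 called 4 higher and 0 lower. Leaving out microglia replicate 2 gave 2 mitosis genes higher, and BAM replicate 1 or 3 gave 1. The median log2 fold change of the list was 0.25, with 18 of 20 values above 0. Cdk1, the kinase of mitotic entry, stood at 244, 263 and 206 CPM in BAM and 168, 212 and 97.7 CPM in microglia. Cdk1 differed by 0.58 ± 0.18 on the log2 scale (adjusted p = 0.0526). It was called higher in 2 of the 6 edgeR fits that left out 1 library (adjusted p from 0.00488 to 0.334 over the 6). Mki67, the proliferation antigen Ki-67, had a log2 fold change of 0.02. Of 20 DNA replication genes, 17 had a log2 fold change above 0 at E11.5, with a median of 0.18. At E12.5, 10 of these and 1 of the mitosis genes were called higher in BAM. At E11.5, 1 DNA replication gene was called higher and none lower (0 at an unadjusted p under 0.05 with edgeR, and 0 with DESeq2). It was Tyms, thymidylate synthase, at 156, 153 and 184 CPM in BAM and 79.1, 115 and 99.5 CPM in microglia, with a log2 fold change of 0.75 ± 0.18 (adjusted p = 0.00545), and it was not called without microglia replicate 1 (adjusted p = 0.0571), while 2 genes of the list were called without microglia replicate 2. Among 15 regulators of the first gap phase, Ccnd1, cyclin D1, was higher at 165, 175 and 149 CPM in BAM and 75.7, 93.3 and 89.5 CPM in microglia, a log2 fold change of 0.92 ± 0.17 (adjusted p = 2.54e-04), and Cdk6, a kinase that pairs with D cyclins, was lower at 103 to 107 CPM in BAM and 139 to 159 CPM in microglia (-0.52).

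Of 13 tested genes of haematopoietic progenitors 1 was higher and 2 lower. Besides Cd34, the adhesion receptor Adgrg1 was lower, at 5.53, 2.87 and 8.23 CPM in BAM and 56.6, 57.2 and 52.2 CPM in microglia. Adgrg1 differed by -3.32 ± 0.57 on the log2 scale (adjusted p = 1.00e-04). Lyl1, a basic helix-loop-helix factor, was higher at 190.1, 172 and 185 CPM in BAM and 128, 142 and 99.3 CPM in microglia with a log2 fold change of 0.57 ± 0.13 (adjusted p = 0.00532), and was not called without microglia replicate 3 (adjusted p = 0.0531). Kit (0.24), Myb (0.86) and Tal1 (-0.63) were not called. Among 17 oncofetal and imprinted growth genes H19, an imprinted noncoding RNA, was the 1 higher, at 25.8, 26.7 and 16.9 CPM in BAM and 7.89, 6.48 and 6.79 CPM in microglia, with a log2 fold change of 1.72 ± 0.40 (adjusted p = 0.00515), and none was lower (1 at an unadjusted p under 0.05 with edgeR, and 0 with DESeq2).

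Markers of other cell types were measured beside these results. Over the 3 microglia libraries together, 1 gene made up most of the summed level of each of 3 lists. These genes were Itgal for monocyte, Pecam1 for endothelial and Nes for neural markers, so those sums mainly follow that gene. Monocyte markers summed to 74.4 to 84.4 CPM in BAM and 235 to 366 CPM in microglia, with Ccr2, Plac8 (-3.38) and Itgal lower in BAM and none of 9 higher (0 at an unadjusted p under 0.05 with edgeR, 0 with DESeq2, and 1 called without microglia replicate 3), whereas Ly6c1, Ly6c2 and Chil3 had no count in any of the 6 libraries. Endothelial markers summed to 55.6 to 88.4 CPM in BAM and 121 to 157 CPM in microglia. Pecam1, which some macrophages also carry, stood at 25.8, 15.2 and 17.3 CPM in BAM and 94.8, 78.1 and 109.6 CPM in microglia with a log2 fold change of -2.28 ± 0.34 (adjusted p = 1.20e-05), while Egfl7, a secreted endothelial factor, was higher at 17.6, 20.6 and 17.5 CPM in BAM and 3.52, 7.18 and 3.98 CPM in microglia, with a log2 fold change of 1.91 ± 0.36 (adjusted p = 3.21e-04). The endothelial cadherin Cdh5 (-0.99) and the receptors Kdr (-0.61) and Tie1 (-0.51) were not called. Without microglia replicate 1, 2 endothelial markers were called higher, and without BAM replicate 1, 2 were called lower. Neural markers summed to 83.1 to 110.0 CPM in BAM and 204 to 224 CPM in microglia, and Nes, which encodes the filament nestin, stood at 33.7, 38.2 and 47.0 CPM in BAM and 153, 167 and 148 CPM in microglia. Nes differed by -1.98 ± 0.30 on the log2 scale (adjusted p = 1.69e-05). It was the 1 of 13 neural markers that was called. Mesenchymal and mural markers summed to 59.4 to 61.5 CPM in BAM and 26.4 to 32.3 CPM in microglia, with none of 12 called by edgeR (2 at an unadjusted p under 0.05) or by DESeq2. Of 12 erythroid markers Epor, the erythropoietin receptor, was higher at 71.1, 59.1 and 65.8 CPM in BAM and 24.1, 14.3 and 19.8 CPM in microglia, with a log2 fold change of 1.76 ± 0.32 (adjusted p = 2.12e-04). No globin gene was called, and reads of Hba-a1 and Hba-a2 may be split between the copies. Granulocyte, mast cell and platelet markers summed to at most 14.9 CPM in any library and none was called with edgeR, 1 of them having an unadjusted p under 0.05 and DESeq2 calling 1 platelet marker. Among 3 tested lymphoid genes Il7r, the interleukin-7 receptor that fetal macrophage progenitors also carry, stood at 0, 0 and 0.579 CPM in BAM and 8.01, 3.001 and 10.7 CPM in microglia, with a log2 fold change of -5.18 ± 1.04 (adjusted p = 0.00133), or -10.31 without BAM replicate 3. The part of other cell types in the results above was not tested. Xist and 4 genes of the Y chromosome were present in every library with overlapping groups, and none of the 5 was called (0 at an unadjusted p under 0.05, and 0 with DESeq2).

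**Figure D3:**
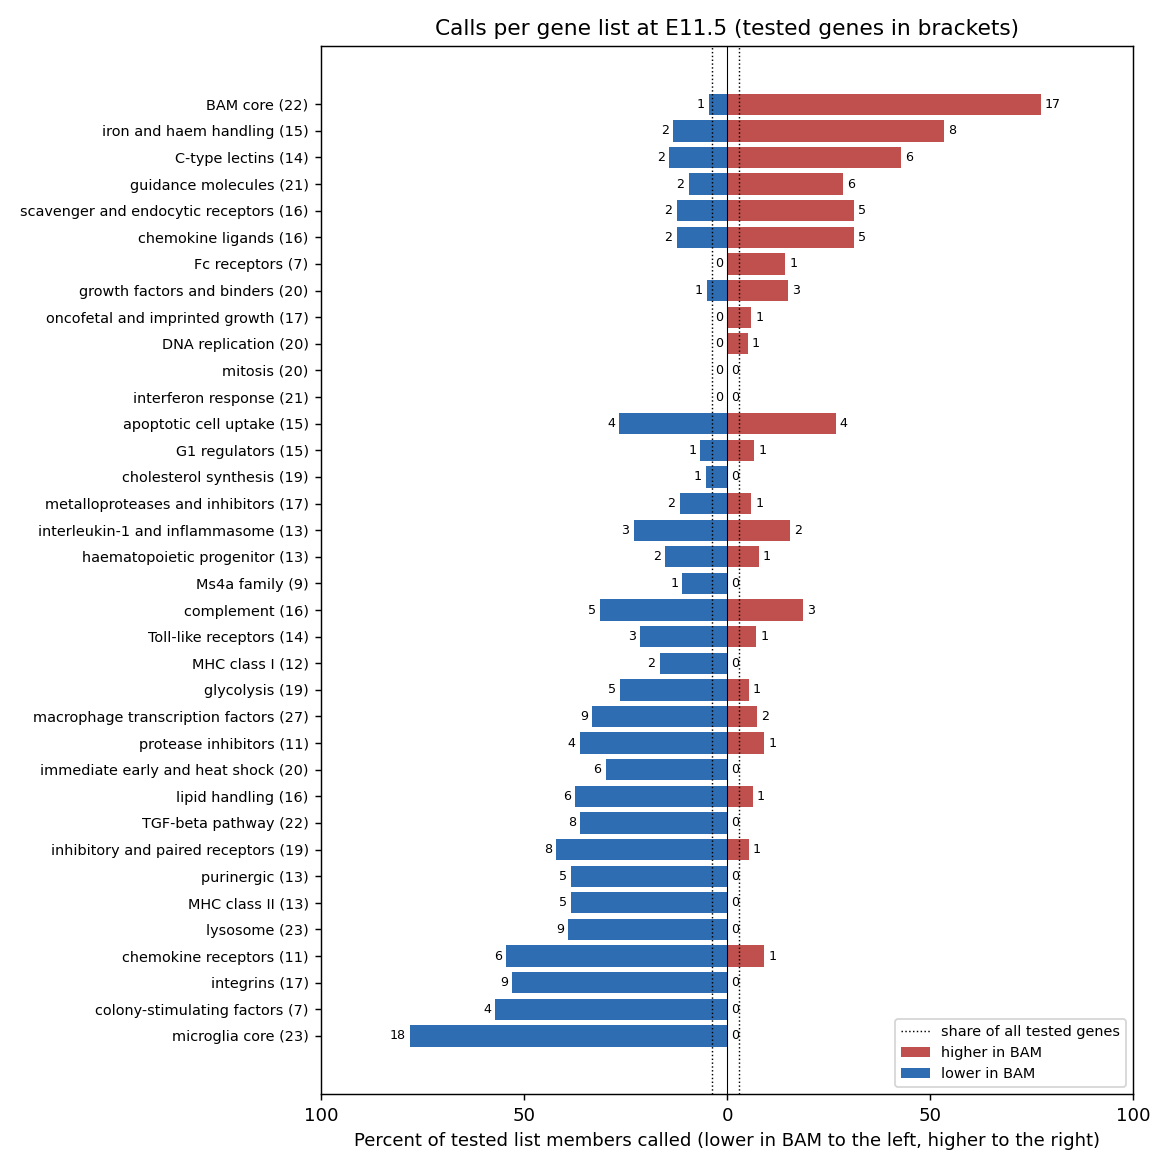
Percent of the tested members of each gene list called at E11.5 by edgeR (horizontal axis), with genes higher in BAM to the right in red, genes lower in BAM to the left in blue, counts at the bar ends and the number tested in brackets. Dotted lines mark the shares among all tested genes, 2.84% higher and 3.83% lower, and the BAM core and iron lists reach furthest to the right, the microglia core and colony-stimulating factor lists furthest to the left. Lists share members.

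The stages on either side show how much of the E11.5 difference was already there and how much stayed. The same fit called 512 genes higher (2.32%) and 477 lower (2.16%) in BAM at E10.5, and 908 higher (4.12%) and 976 lower (4.42%) at E12.5. Of the 626 genes higher at E11.5, 257 were also higher at E10.5 (41.1% of the E11.5 list and 50.2% of the E10.5 list) and 394 at E12.5 (62.9% and 43.4%). Of the 844 lower genes, 286 were also lower at E10.5 (33.9% and 60%) and 633 at E12.5 (75% and 64.9%). Genes higher at all 3 stages numbered 229 and those lower 266. Calls shared with E12.5 and not with E10.5 numbered 165 higher and 367 lower, against 28 and 20 shared with E10.5 and not with E12.5. A call at one stage and not at another is no test of the change between them, which was tested directly.

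The difference between populations at E11.5 departed from that at E10.5 in 162 genes (0.734% of those tested), 50 with a larger and 112 with a smaller log2 ratio of BAM over microglia at E11.5. Without BAM replicate 2 the smaller group held 67. Serpine2 averaged 5.97 ± 0.148 CPM in BAM and 334 ± 50.2 CPM in microglia at E11.5 (SD, n = 3 each), and 13.5 ± 5.25 CPM in BAM and 80.1 ± 40.7 CPM in microglia at E10.5 (SD, n = 4 each), and its log2 ratio moved by -3.23 ± 0.54 (adjusted p = 0.00154). Abcg1 averaged 35.7 ± 3.66 CPM in BAM and 165 ± 63.1 CPM in microglia at E11.5, and 21.5 ± 5.40 CPM in BAM and 15.7 ± 8.19 CPM in microglia at E10.5, a move of -2.65 ± 0.38 (adjusted p = 2.41e-04). Cadm1, a cell adhesion molecule of the immunoglobulin family, averaged 33.2 ± 2.33 CPM in BAM and 135 ± 21.5 CPM in microglia at E11.5, and 52.8 ± 7.18 CPM in BAM and 41.6 ± 7.02 CPM in microglia at E10.5, a move of -2.37 ± 0.24 (adjusted p = 5.05e-07). In each of the 3 the microglia mean at E11.5 was above that at E10.5, and the BAM means of Serpine2 and Cadm1 at E11.5 were below those at E10.5. Serpine2 was lower in BAM at E10.5 already, and Abcg1 and Cadm1 were not called between the populations at E10.5 (adjusted p = 0.368 and 0.242). Slc2a5, the fructose transporter of microglia, averaged 21.5 ± 2.91 CPM in BAM and 141 ± 17.97 CPM in microglia at E11.5, and 45.6 ± 2.47 CPM in BAM and 69.5 ± 22.3 CPM in microglia at E10.5, a move of -2.10 ± 0.37 (adjusted p = 0.00251). Parvg, an actin-linked parvin of blood cells, averaged 34.5 ± 2.85 CPM in BAM and 328 ± 25.1 CPM in microglia at E11.5, and 112 ± 38.9 CPM in BAM and 263 ± 42.0 CPM in microglia at E10.5, a move of -2.03 ± 0.34 (adjusted p = 0.00174). For these 2 genes the BAM mean was lower and the microglia mean higher at E11.5 than at E10.5. Spsb1, Lhfpl2 and Amz1 moved the same way, by -2.03, -2.00 and -1.98, and Spsb1 was not called without BAM replicate 2 (adjusted p = 0.0554). In a fit of the compared groups alone Abcg1, Lhfpl2 and Amz1 were not called (adjusted p = 0.0524, 0.0736 and 0.0708).

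In the other direction, Cnn3 averaged 67.8 ± 11.6 CPM in BAM and 15.6 ± 2.86 CPM in microglia at E11.5, and 60.9 ± 8.10 CPM in BAM and 53.8 ± 6.21 CPM in microglia at E10.5, a move of 1.94 ± 0.33 (adjusted p = 0.00174). Cd200r1 averaged 122 ± 25.3 CPM in BAM and 34.9 ± 3.91 CPM in microglia at E11.5, and 31.8 ± 2.54 CPM in BAM and 27.6 ± 5.26 CPM in microglia at E10.5, a move of 1.60 ± 0.31 (adjusted p = 0.00759). The gap opened on the microglia side for Cnn3 and on the BAM side for Cd200r1. At E12.5, in another series of library numbers, Cnn3 averaged 106 CPM in BAM and 60.27 CPM in microglia. The low Cnn3 mean in microglia was thus seen at E11.5 only among the 3 stages. Cd200r1 averaged 144.8 CPM in BAM and 19.25 CPM in microglia at E12.5. Samsn1, an adaptor that dampens leukocyte signalling, averaged 88.1 ± 4.51 CPM in BAM and 49.8 ± 5.0 CPM in microglia at E11.5, and 32.3 ± 2.64 CPM in BAM and 48.4 ± 6.49 CPM in microglia at E10.5, a move of 1.41 ± 0.24 (adjusted p = 0.00174). It was called lower in BAM at E10.5 and higher in BAM at E11.5. Gpr183, a receptor for oxysterols, averaged 154 ± 26.8 CPM in BAM and 124 ± 17.7 CPM in microglia at E11.5, and 90.1 ± 15.9 CPM in BAM and 188 ± 15.97 CPM in microglia at E10.5, a move of 1.37 ± 0.25 (adjusted p = 0.00289). Gpr183 was lower in BAM at E10.5 and was not called at E11.5. The difference in Rnf144b, a ubiquitin ligase, moved by 1.61 ± 0.34 (adjusted p = 0.0123) and was not called without BAM replicate 3 (adjusted p = 0.0575). That in Tamm41, a mitochondrial enzyme of cardiolipin synthesis, moved by 1.24 ± 0.30 (adjusted p = 0.0376) and was not called without BAM replicate 2 or 3 or microglia replicate 2 or 3 (adjusted p from 0.0693 to 0.137). That in Rps6ka3, the kinase RSK2, moved by 0.98 ± 0.23 (adjusted p = 0.0307) and was not called without BAM replicate 2 or 3 or microglia replicate 1 or 2 (adjusted p from 0.0716 to 0.0776). That in Ramac, a cofactor of mRNA cap methylation, moved by 0.94 ± 0.22 (adjusted p = 0.0296) and was not called without BAM replicate 2 or 3 or microglia replicate 2 or 3 (adjusted p from 0.0695 to 0.14). These 4 moves were thus less firm than those of Cnn3, Cd200r1, Samsn1 and Gpr183, which were called in all 6 such fits. Nor were the 4 called in a fit of the compared groups alone (adjusted p from 0.0524 to 0.231).

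Against E12.5 the difference between populations departed in 6 genes (0.0272% of those tested), 3 each way. The E12.5 libraries belong to another series of library numbers than those of E11.5, and each difference was taken within 1 series. Tgfbi averaged 290.2 ± 12.2 CPM in BAM and 421 ± 8.35 CPM in microglia at E11.5, and 303 ± 27.6 CPM in BAM and 214 ± 10.8 CPM in microglia at E12.5 (SD, n = 3 each), a departure of -1.04 ± 0.17 (adjusted p = 0.00793). Its microglia level was highest at E11.5, so that BAM were called lower at E11.5 and higher at E12.5, and at E10.5 the means were 216 ± 22.5 CPM in BAM and 207 ± 25.6 CPM in microglia. Lair1 averaged 19.3 ± 2.41 CPM in BAM and 312 ± 33.4 CPM in microglia at E11.5, and 6.94 ± 0.301 CPM in BAM and 501 ± 119 CPM in microglia at E12.5, a departure of 2.16 ± 0.37 (adjusted p = 0.00916). Afap1l1, an actin-binding adaptor, averaged 127 ± 8.07 CPM in BAM and 57.5 ± 10.3 CPM in microglia at E11.5, and 143 ± 20.04 CPM in BAM and 24.3 ± 4.81 CPM in microglia at E12.5, a departure of -1.41 ± 0.23 (adjusted p = 0.00793). The Lair1 mean in BAM and the Afap1l1 mean in microglia were higher at E11.5 than at E12.5. In a fit of the compared groups alone, Lair1 was the 1 of the 5 named genes that was still called, with Tgfbi at an adjusted p of 0.0649 and Afap1l1 at 0.17. The departure of Mctp1, a membrane protein that binds calcium, was -1.78 ± 0.34 (adjusted p = 0.0377) and was not called without any one BAM library or microglia replicate 3 (adjusted p from 0.0529 to 0.144). That of Lsp1, an actin-binding protein of leukocytes, was 1.47 ± 0.28 (adjusted p = 0.0377) and was not called without BAM replicate 1 or 3 or microglia replicate 3 (adjusted p from 0.0633 to 0.144). The sixth gene, Aldoc, was outside the naming rule and had no microglia count at E11.5, against a mean of 2.45 CPM in microglia at E12.5. Without BAM replicate 2, 6 genes had a larger log2 ratio, and without microglia replicate 1, 5 had a smaller one.

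**Figure D4:**
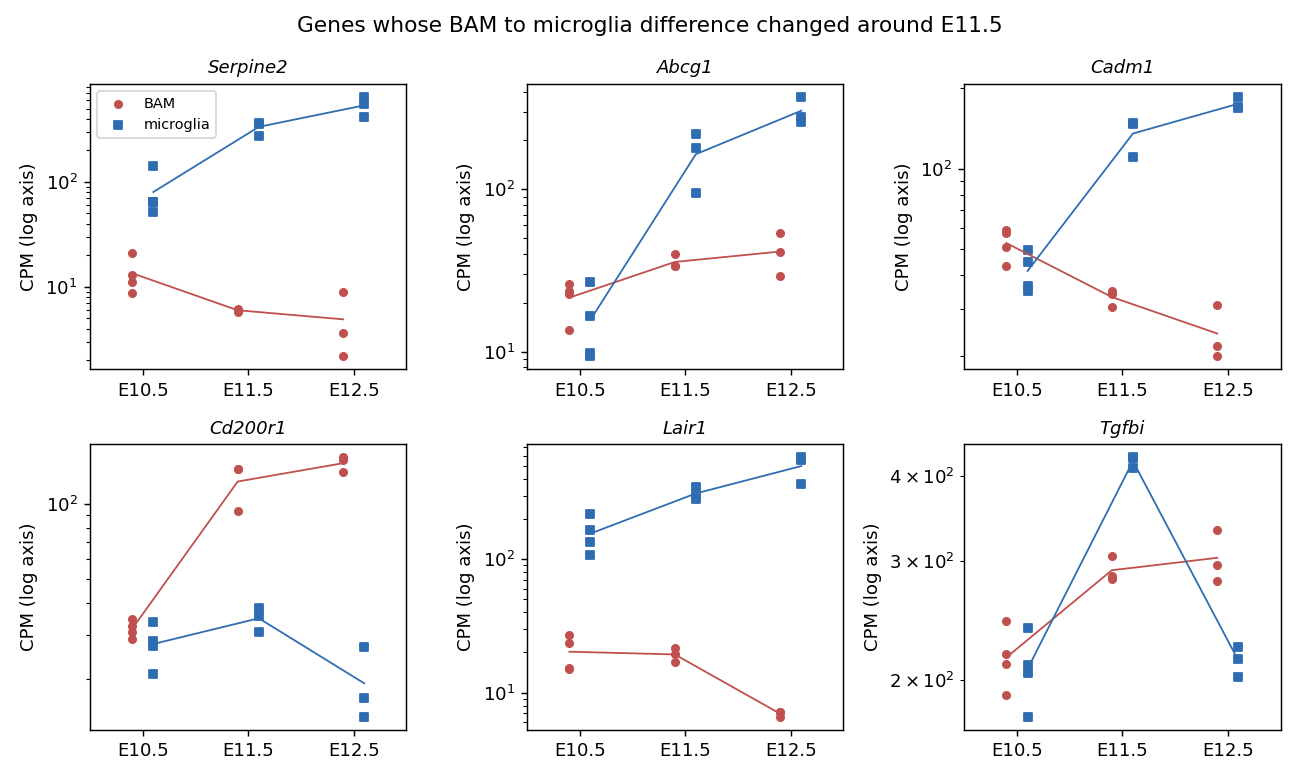
Level per library at E10.5, E11.5 and E12.5, in CPM on a log axis, of 6 genes whose difference between populations changed at E11.5, with BAM as red circles on the left, microglia as blue squares on the right and lines through the means (4, 3 and 3 libraries per population). The microglia means of Serpine2, Abcg1 and Cadm1 and the BAM mean of Cd200r1 are higher at E11.5 than at E10.5, the BAM means of Serpine2 and Cadm1 are lower, the Lair1 gap widens at E12.5, and Tgfbi in microglia is highest at E11.5 at 411 to 426 CPM.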

How the data were processed

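The authors deposited 1 table of gene counts for all libraries, and only those counts were used. Per the submitters' processing notes, the tools were STAR and featureCounts and the genome build was GRCm38. The versions, the annotation release, and the strand and pair settings are not given in the sources used here. Over the 6 E11.5 libraries, counts tended to be even, as 6130 gene values equalled 2 and 2563 equalled 1, so the counts were also tested divided by 2. The labels' protocol names no unique molecular identifiers, so intervals and floors cover counting error only, and spike-in RNA named in the labels is not used here. Fold bounds and counting intervals were taken from the undivided counts. If 1 fragment often gave 2 counts, the bounds are too high and the intervals too narrow. The 6 libraries held 20630490 to 47182711 counts each.

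Genes were filtered with filterByExpr and scaled by TMM in edgeR 4.0.16 (R 4.3.3). A quasi-likelihood model was fitted to all 39 libraries in 12 groups, with 27 residual degrees of freedom and a biological coefficient of variation of 55.08%. Contrasts were BAM minus microglia at E11.5, and that difference minus the one at E10.5 or E12.5. The standard error is the log2 fold change divided by the square root of F, p-values were adjusted over all 22061 genes, and a gene was called under 0.05. RPKM divides CPM by the deposited gene length. Symbols came from a table of gene names by identifier. Replicate numbers follow the order of the samples in the labels and were not used to pair samples. The model was tested on simulated data, where it called 40 of 100 genes set to differ 2-fold and 69 of 100 set to differ 4-fold. Among 20834 genes set not to differ it called 4. A gene that was not called is therefore not shown to be equal in both populations.

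Named genes are the 15 largest called changes each way among genes averaging 4 or more in log2 CPM, the 4 members of a list with the smallest p, a panel of known genes, and up to 8 genes each way per contrast between stages. Further list members were named after their values were seen. Some genes that this rule names are not reported here. Members and lists were chosen with earlier results of these data known. Alternatives were a 2-fold threshold, no filter, RLE factors, divided counts, the compared groups alone, 1 library series alone, a block of neighbouring library numbers, each library left out and DESeq2 1.42.0. Figures used matplotlib 3.10.9.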

Additional observations from a re-analysis of the deposited data

Results flagged for a closer look

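Each gene here is one whose difference between BAM and microglia at E11.5 departed from that at a neighbouring stage, by the direct test of the 2 differences in the edgeR fit across all genes. Values are the log2 difference at E11.5 minus that at the other stage. Of the 21 genes, 11 were not called in a fit of the compared groups alone, namely Rnf144b, Tamm41, Rps6ka3, Ramac, Abcg1, Lhfpl2, Amz1, Lsp1, Mctp1, Afap1l1 and Tgfbi.

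Against E10.5, 8 named genes had a more negative difference at E11.5. These were Serpine2 (-3.23), Abcg1 (-2.65), Cadm1 (-2.37), Slc2a5 (-2.10), Spsb1 (-2.03), Parvg (-2.03), Lhfpl2 (-2.00) and Amz1 (-1.98). Serpine2, Spsb1, Lhfpl2 and Amz1 were also among the 15 genes with the largest decreases in BAM at E11.5 itself. Another 8 had a more positive difference, namely Cnn3 (1.94), Rnf144b (1.61), Cd200r1 (1.60), Samsn1 (1.41), Gpr183 (1.37), Tamm41 (1.24), Rps6ka3 (0.98) and Ramac (0.94).

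Against E12.5, Mctp1 (-1.78), Afap1l1 (-1.41) and Tgfbi (-1.04) had a more negative difference at E11.5, and Lair1 (2.16) and Lsp1 (1.47) a more positive one. Tgfbi was the gene among them that was called in opposite directions at the 2 stages.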

How the results depend on the processing

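No named gene reversed its direction with a call under any alternative run, and the losses of call for named genes when 1 library was left out are given beside each gene. For genes higher in BAM at E11.5, a test against a 2-fold threshold gave 82, the compared groups alone 364, the library number series that holds E10.5 and E11.5 alone 355 and DESeq2 1019, and for genes lower in BAM the 2-fold threshold gave 210. Leaving out 1 library gave 450 to 528 higher and 655 to 764 lower. RLE factors gave 666 and 818, no filter 627 and 825, and divided counts 742 and 864. Against E10.5, genes with a larger difference numbered 7 with the 2-fold threshold, 125 with no filter, 9 with the compared groups alone, 8 with the library series alone, 183 with DESeq2 and 35 to 52 with 1 library left out. Those with a smaller difference numbered 6, 209, 23, 25, 299 and 67 to 97 in the same order. Against E12.5, genes with a larger difference numbered 0 with the 2-fold threshold, 23 with no filter, 1 with the compared groups alone, 55 with DESeq2 and 2 to 6 with 1 library left out, and those with a smaller one 0, 12, 0, 25 and 2 to 5. The library series alone gives no value against E12.5, whose libraries are in the other series. The causes were not tested. Among the named genes and called list members at E11.5, 26 lost their call with the compared groups alone and 29 with the library series alone, and of those named for a change between stages 11 and 6 did. With a replicate block of neighbouring library numbers, 821 genes were higher and 996 lower at E11.5, 63 and 194 departed from E10.5 and 22 and 8 from E12.5. The deviations of neighbouring libraries from their group means correlated at 0.0465, 0.0163 and 0.000232. So few pairs cannot decide whether neighbouring numbers share a litter or a sort, and the main fit treated the samples as unpaired. Depth limits genes at 0 counts in a group, for which a fold change has only a bound.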

Other observations

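Among called genes, 81 of those higher in BAM had no count in any microglia library and 50 of those lower in BAM had none in any BAM library. The 6 with the largest bounds each way were chosen after their values were seen, and a bound sets 3 counts over the group at 0. Bounds were taken from the undivided counts and would be lower if 1 fragment often gave 2 counts. Pdcd1, the inhibitory receptor PD-1, had no count in BAM, and 24.7, 25.9 and 15.6 CPM in microglia replicates 1, 2 and 3, which makes it at least 548-fold lower in BAM. It was absent from the BAM counts at E12.5 too, where microglia averaged 20.6 CPM, and averaged 2.01 CPM in BAM and 25.1 CPM in microglia at E10.5. Plxdc1, a relative of Plxdc2, was at least 148-fold lower in BAM, the proteoglycan Cspg4 at least 118-fold, the cytokine Clcf1 at least 106-fold, the chondroitin sulfotransferase Chst11 at least 96.3-fold and the olfactory receptor Olfr112 at least 71.4-fold. Cspg4 was not called at E10.5 or E12.5, where BAM averaged 0.714 and 1.29 CPM and microglia 2.12 and 2.82 CPM. Chst11 was not called at E12.5, at 1.83 CPM in BAM and 8.63 CPM in microglia, and Olfr112 was not called at E10.5.

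With no count in microglia, the transporter Slc16a12 was at least 114-fold higher in BAM, the glycosyltransferase A4galt at least 97.5-fold, the matrix protein Frem1 at least 83.3-fold, the aminopeptidase Enpep at least 76.2-fold, the chromatin remodeller Smarca1 at least 71.8-fold and Aldoc at least 70.0-fold. These levels were low, at most 5.08 CPM in any BAM library. A4galt had no count in microglia at E10.5 or E12.5 either. Slc16a12, Frem1, Enpep and Aldoc were not called at E10.5, nor was Aldoc at E12.5. Frem1 and Smarca1 were not called at E12.5, where microglia averaged 2.21 and 4.48 CPM, and Smarca1 was lower in BAM at E10.5, with a mean of 0 CPM in BAM and 0.882 CPM in microglia.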
